A study of Homo sapiens with 24 samples.

Results

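The genes described here are 44 human genes of DNA repair and the replication fork, followed across 24 3′ RNA-seq libraries of bladder cancer cell lines after knock-down of the transcription factors FOXA1 and ZBED2. They were chosen by gene symbol, with earlier results of these data known. Of the 44, 13 were grouped under homologous recombination, 9 under the Fanconi anaemia pathway, 1 under mismatch repair, 14 under the replication fork and 7 under the checkpoint. All 44 are among the 58721 genes of the count table, and all 44 passed the filter on low counts in both lines. Several could stand in more than 1 group (BRIP1 and PALB2 also belong to the Fanconi anaemia pathway), and each was counted once.

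The lines were RT112, of the luminal papillary class and grown in RPMI with 10% FBS, and SCaBER, of the basal/squamous class and grown in DMEM with 10% FBS. Each was transfected by Lipofectamine RNAiMax with a control siRNA (siControl, number 2 in the labels), an siRNA against ZBED2 (siZBED2-1 or siZBED2-2), an siRNA against FOXA1 (siFOXA1, number 1 in the labels), or siFOXA1 together with either ZBED2 siRNA. Each of the 6 treatments has 2 libraries per line, numbered as experiment batch replicates. Every library, siControl included, is of transfected cells of an established tumour line kept in culture. The labels name 1 FOXA1 siRNA, so loss of FOXA1 and any other action of that siRNA cannot be told apart. Nothing states that replicates were separate cultures, and p-values measure the spread between these libraries, which may be technical. In bulk libraries fewer cells of a type, such as cells in S phase, and less RNA per cell cannot be told apart.

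As background, homologous recombination repairs a broken chromosome by copying the sister chromatid: EXO1 and BLM resect the ends, BRCA1 with BARD1, PALB2 and BRCA2 prepare them for strand exchange, and RAD51C, XRCC2 and XRCC3 assist. The Fanconi anaemia pathway acts at forks stalled by crosslinked DNA, where a core complex (FANCA, FANCC, FANCE, FANCF, FANCG, FANCL, FANCM) leads to ubiquitination of the FANCD2 and FANCI pair. At the moving fork the clamp PCNA is loaded by the RFC complex and holds the polymerases, while RPA covers single-stranded DNA, and the kinases ATR and CHEK1, with TOPBP1 and CLSPN, signal when the fork stalls. Many of these genes are transcribed most as cells enter S phase. FOXA1 is a pioneer factor of the luminal urothelium, whereas ZBED2 encodes a DNA-binding protein with a BED-type zinc finger.

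Libraries held 4425404 to 6119210 counts, so 3 counts correspond to 0.48 to 0.68 CPM (counts over the library total on the usual CPM scale, with library totals adjusted here by the trimmed mean of M-values, TMM), and such limits cover counting error only. The members averaged from 10.4 counts a library (RAD54B) to 1073 (RFC1) in RT112 and from 16.1 (RAD54B) to 716 (RFC1) in SCaBER. The lines kept their classes in part: mean siControl CPM of GATA3 was 505 in RT112 and 12.2 in SCaBER, and that of KRT6A was 6.28 and 985. Of 10 basal markers examined, KRT16 (54.5 and 23.7) and TP63 (25.2 and 18.9) were higher in RT112, and the rest in SCaBER. The luminal differentiation markers KRT20 and UPK3A were at 0 in siControl libraries of both lines. Fold changes are given on the log2 scale with ± for the standard error (SE), beside the adjusted p of the edgeR quasi-likelihood test. FOXA1 itself fell in RT112, from 42.2 and 41.3 CPM in the siControl libraries to 6.84 and 9.46 in the siFOXA1 libraries (log2 fold change -2.36 ± 0.38, adjusted p = 5.68e-05). In SCaBER FOXA1 was low with siControl, at 3.78 and 5.59 CPM, and read 0.816 and 1.36 with siFOXA1 (log2 fold change -2.09 ± 1.23, adjusted p = 0.27), so its knock-down was not detectable there at this depth. ZBED2 fell with siZBED2-1 in both lines (-3.97 ± 0.93, adjusted p = 0.00624 in RT112 and -1.96 ± 0.47, adjusted p = 0.00848 in SCaBER), and with siZBED2-2 its estimates were -1.52 ± 0.79 (adjusted p = 0.903) and -0.61 ± 0.43 (adjusted p = 0.84). The FOXA1 siRNA alone also lowered ZBED2 in RT112 (-2.48 ± 0.84, adjusted p = 0.0325) and left it at 20.4 and 19.1 CPM in SCaBER, against 19.1 and 19.2 with siControl. The RT112 siFOXA1 libraries differed from each other. Of the 44 members, 7 were higher and the rest lower in replicate 2 than in replicate 1, with a median difference of -0.70 on the log2 scale. Against siControl the members' median was -0.55 in replicate 1 and -1.27 in replicate 2. With 2 libraries it cannot be told which of them stands apart. The RT112 siFOXA1 calls are given with and without replicate 2, which is the stricter choice and no judgement that replicate 2 is at fault. Leaving out replicate 1 instead raised the number of calls.

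The first comparison asked what the FOXA1 siRNA alone did to these genes in each line. In RT112, 20 of the 44 members were called (adjusted p under 0.05, edgeR quasi-likelihood test, adjusted over all genes), 19 of them lower and RFC1 higher. Of all 13264 genes tested there, 23.3% were called in either direction and 11.9% lower. In SCaBER, 19 of the 44 were called and all 19 were lower, where 17.8% of 13129 genes were called in either direction and 9.12% lower. The median log2 fold change of the members was -0.89 in both lines, against -0.01 and -0.02 over all genes tested. Estimates were negative for 37 members in RT112 and 40 in SCaBER. For 33 members in each line, both siFOXA1 libraries lay under both siControl libraries, which was so for 31.7% and 28.3% of all genes. Where such a separation is described for a called member below, it rests on the values that gave the call and adds no support.

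RT112 siFOXA1 replicate 2 carried much of the RT112 count. Without it 7 members were called there, all 7 lower, with a median of -0.57, although the test then takes the spread of the lone siFOXA1 library from the other groups. In SCaBER, leaving out any 1 library gave 16 or 17 calls. With the replicate number as a block, 23 and 20 members were called, the members gained being RFC5, BRCA2 and BRIP1 in RT112 and TIMELESS in SCaBER. Of the 20 RT112 calls, 7 were kept under each of the 10 other settings tried (CLSPN, EXO1, MSH6, BARD1, RAD51AP1, FANCA and PCNA), and of the 19 SCaBER calls 12 were (CLSPN, MSH6, BARD1, TOPBP1, FEN1, RFC5, RFC3, FANCI, BLM, FANCA, BRCA1 and PCNA). The 5 in both lists are CLSPN, MSH6, BARD1, FANCA and PCNA. Leaving out RT112 siFOXA1 replicate 2 ended 13 of the RT112 calls, with adjusted p then at 0.064 for FANCI, 0.10 for RFC1, 0.11 for RFC3, 0.13 for FEN1 and CHEK2, 0.15 for FANCG and RAD54L, 0.19 for RFC2, 0.32 for XRCC2, 0.38 for POLE and BRCA1, 0.45 for BLM and 0.49 for FANCD2. In SCaBER the 7 calls not kept were EXO1, FANCD2, RFC2, XRCC2, FANCG, RAD51AP1 and POLE, each lost with a left-out library (highest adjusted p from 0.063 to 0.27).

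Markers of cycling cells moved with these genes. All 13 proliferation markers were called lower with siFOXA1 in both lines, with a median log2 fold change of -1.99 in RT112 and -1.38 in SCaBER, larger in size than that of the members. Their summed level went from 3547 to 3584 CPM in the RT112 siControl libraries to 568 to 1307 CPM in the siFOXA1 libraries, and from 2988 to 3179 CPM to 1072 to 1282 CPM in SCaBER. TOP2A, a topoisomerase of S phase to mitosis, had the highest siControl level of the list in both lines (1496 and 1346 CPM). The share of counts on the mitochondrial genome was also higher in every RT112 library with the FOXA1 siRNA (18.6% to 22.7%) than in every one without it (8.22% to 17.8%), while in SCaBER the ranges overlapped (9.29% to 12.9% and 9.55% to 12.0%). The part of either in the members' change was not tested.

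**Figure D1:**
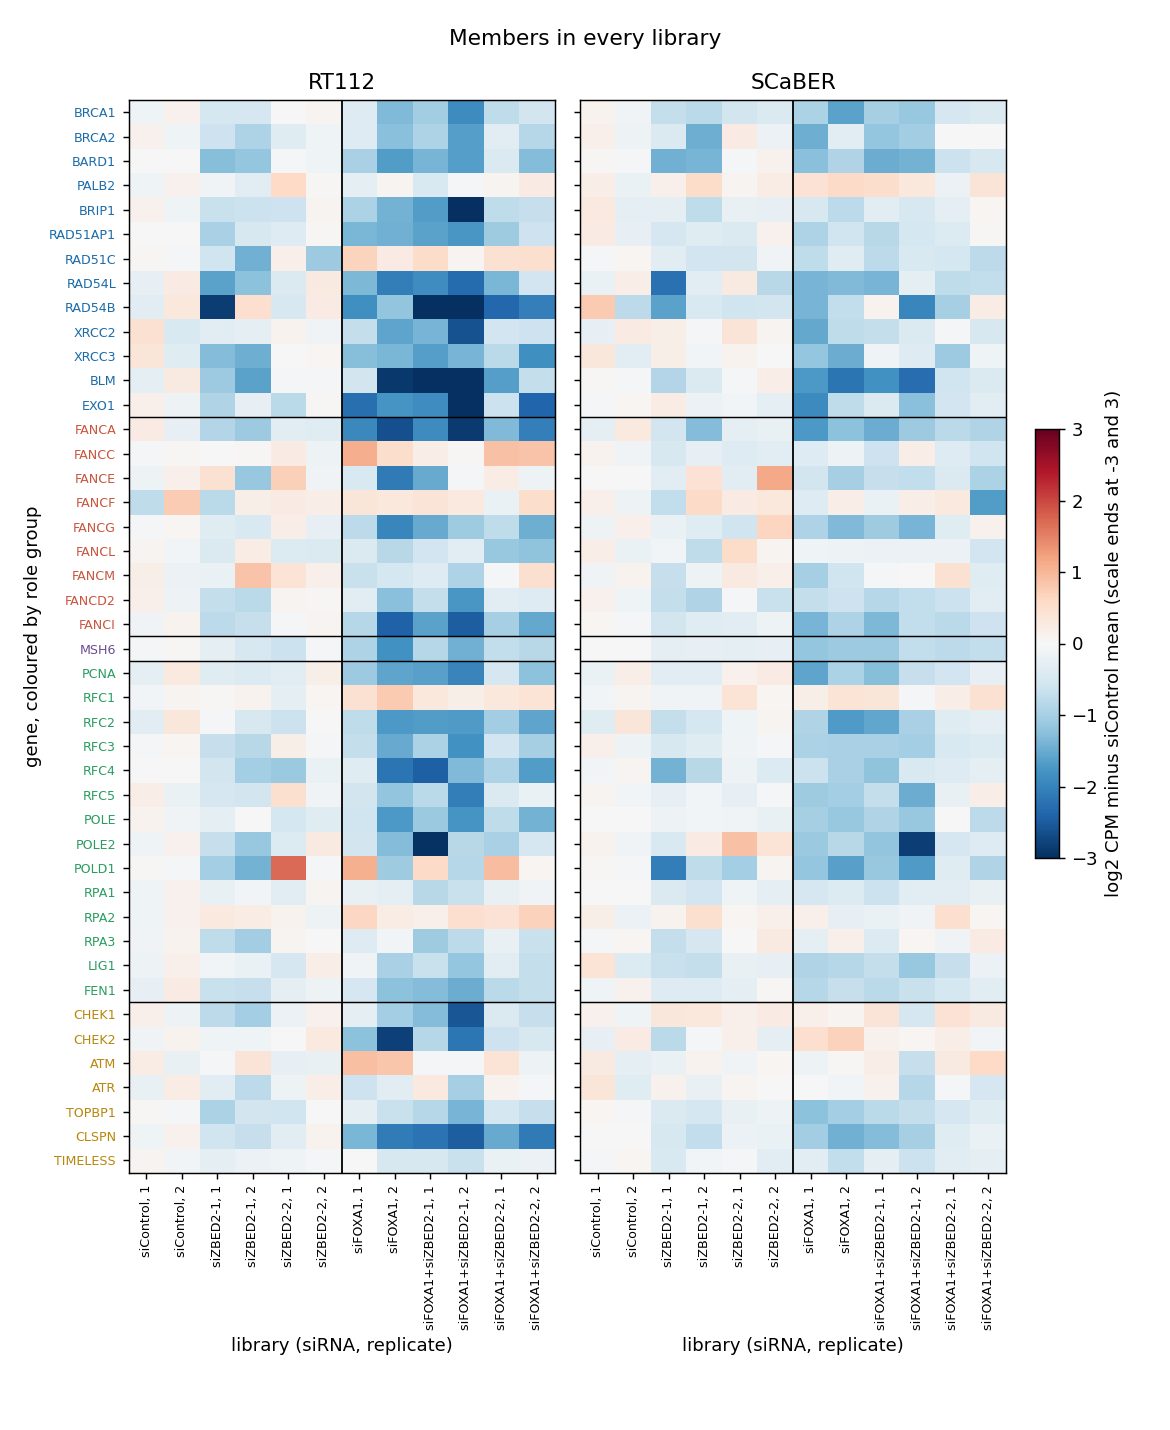
Heat map of the 44 members (rows, coloured by role group) in the 24 libraries (columns, by siRNA and replicate), as log2 CPM minus the siControl mean of the line, with the colour scale ending at -3 and 3. Blue (lower) fills most rows of the siFOXA1 columns in both lines, and the libraries with siFOXA1+siZBED2-2 in SCaBER are paler.

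Among the homologous recombination genes, 7 of 13 were called lower in RT112 (median log2 fold change -1.29) and 6 of 13 in SCaBER (median -1.14). BARD1, the partner that stabilises BRCA1 in a ubiquitin ligase, read 69 and 71.2 CPM in the RT112 siControl libraries and 35.4 and 21.7 with siFOXA1 (log2 fold change -1.29 ± 0.28, adjusted p = 0.00122). In SCaBER it read 61.8 and 59.7 and then 25.1 and 32.2 (log2 fold change -1.09 ± 0.23, adjusted p = 0.000603). The siControl replicates of BARD1 differed little in either line and lay far above every siFOXA1 library. BRCA1 itself went from 103 and 88 to 49.4 and 30.8 CPM in SCaBER (log2 fold change -1.25 ± 0.20, adjusted p = 2.36e-05). Its RT112 values, 89.2 and 107 against 74 and 38.9, gave a smaller estimate (-0.79 ± 0.25, adjusted p = 0.0238), and that call was lost without siControl replicate 2 or siFOXA1 replicate 2 (adjusted p up to 0.38). The siControl and siFOXA1 values of BRCA1 did not overlap in either line.

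The helicase BLM fell most of this group in SCaBER, from 26.8 and 25.8 CPM to 7.75 and 5.44 (log2 fold change -1.99 ± 0.35, adjusted p = 7.94e-05). In RT112 its siFOXA1 libraries disagreed, at 24.9 and 4.51 CPM against 30.3 and 43.9 in siControl (log2 fold change -1.33 ± 0.47, adjusted p = 0.0424), and the DESeq2 p of that call was 0.058. EXO1, the exonuclease that resects DNA ends, read 26.4 and 21.1 CPM against 4.63 and 6.66 in RT112 (log2 fold change -2.07 ± 0.54, adjusted p = 0.00634). EXO1 fell in SCaBER too (-1.27 ± 0.36, adjusted p = 0.0116), from 23.6 and 25.8 to 6.32 and 14.3 CPM. In both lines the 2 groups of EXO1 values were clear of each other, which adds no support to calls made on these same values.

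RAD51AP1, which helps homologous strands pair, had the smallest p of the group in RT112, where 70.5 and 71.6 CPM became 27.2 and 26 (log2 fold change -1.42 ± 0.25, adjusted p = 0.000172). Both replicates agreed closely before and after. In SCaBER it fell too (-0.79 ± 0.24, adjusted p = 0.0185). XRCC2, which acts in strand exchange, was also called in both lines (-1.18 ± 0.42, adjusted p = 0.0416 in RT112 and -1.14 ± 0.29, adjusted p = 0.00462 in SCaBER). RAD54L, a motor protein that moves along DNA, was called in RT112 alone (-1.76 ± 0.53, adjusted p = 0.0156), and its SCaBER estimate was similar in size but less precise (-1.45 ± 0.61, adjusted p = 0.104).

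Not called in either line were BRCA2, PALB2, which links it to BRCA1, the helicase BRIP1, RAD51C, XRCC3 and RAD54B. PALB2 stayed near its siControl values of 13.4 and 16 CPM in RT112, at 11.9 and 15.5 (log2 fold change -0.11 ± 0.38, adjusted p = 0.89), and its SCaBER estimate was positive (0.50 ± 0.32, adjusted p = 0.32). RAD54B was so sparse that it gave little information (-1.78 ± 1.39, adjusted p = 0.39, and -1.39 ± 0.98, adjusted p = 0.38). For BRCA2 the estimates of -0.76 ± 0.30 (adjusted p = 0.0685) and -0.81 ± 0.35 (adjusted p = 0.11) were of the size of several called members, with larger errors.

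Of the Fanconi anaemia genes, 4 of 9 were called lower in both lines, and they were the same 4: FANCA, FANCG, FANCD2 and FANCI. The medians of the group were -0.74 in RT112 and -0.78 in SCaBER. FANCA, a subunit of the core complex, read 46.8 and 33.6 CPM in RT112 siControl libraries and 10.1 and 6.02 with siFOXA1, the greatest change of any member there (log2 fold change -2.31 ± 0.39, adjusted p = 9.58e-05). SCaBER gave 32.1 and 48.9 and 11.8 and 16.8 CPM (log2 fold change -1.50 ± 0.31, adjusted p = 0.000570). FANCI, one side of the ubiquitinated pair, fell from 86.5 and 79.9 to 31.6 and 43.3 CPM in SCaBER (log2 fold change -1.15 ± 0.22, adjusted p = 0.000154). Its RT112 libraries read 66.6 and 78.2 and, with siFOXA1, 39.4 and 13.1 CPM (log2 fold change -1.46 ± 0.34, adjusted p = 0.00243), and the lower of these is replicate 2, without which the adjusted p was 0.064. FANCD2, the other side of the pair, was also called (-0.74 ± 0.27, adjusted p = 0.0489 and -0.68 ± 0.20, adjusted p = 0.0141, the RT112 call being lost with DESeq2, adjusted p = 0.065, and without siControl replicate 1 or siFOXA1 replicate 2), and FANCG of the core complex fell by 1.27 and 1.14 on the log2 scale (adjusted p = 0.00648 and 0.0176).

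The remaining 5 were the core subunits FANCC, FANCE and FANCF, the ubiquitin ligase FANCL and the DNA translocase FANCM. FANCF had the largest p of the group in both lines (0.14 ± 0.49, adjusted p = 0.88, and -0.08 ± 0.71, adjusted p = 0.96). The FANCF siControl libraries of RT112 read 5.93 and 17.8 CPM, a spread wider than any shift seen with siFOXA1 (13.5 and 12.9). FANCC, FANCE, FANCL and FANCM had estimates of 0.86, -1.10, -0.63 and -0.65 in RT112 and of -0.27, -0.78, -0.15 and -0.81 in SCaBER, with SE from 0.30 (FANCC) to 0.59 (FANCE), and none of them was called.

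MSH6, the mismatch repair member, binds base mismatches and was called lower in both lines. Its RT112 libraries read 131 and 136 CPM with siControl and 69.8 and 37.8 with siFOXA1 (log2 fold change -1.31 ± 0.24, adjusted p = 0.000243). SCaBER replicates were closer, at 109 and 109 and 48.5 and 50.8 CPM (log2 fold change -1.14 ± 0.18, adjusted p = 1.02e-05). Of 5 other mismatch repair genes tested, 0 were called in either line by edgeR or DESeq2 (0 and 1 had an unadjusted p under 0.05), with medians of -0.33 in RT112 and -0.54 in SCaBER.

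At the replication fork, 5 of 14 members were called lower and 1 higher in RT112, and 6 of 14 lower in SCaBER, with group medians of -0.85 and -0.97. PCNA, the sliding clamp, read 130.1 and 194 CPM in RT112 and 74 and 52.4 after siFOXA1 (log2 fold change -1.36 ± 0.23, adjusted p = 0.000119). In SCaBER 105 and 136 CPM became 39.8 and 61.7 (log2 fold change -1.25 ± 0.20, adjusted p = 2.07e-05). No PCNA library with siFOXA1 reached the lowest siControl library of its line. FEN1, the flap endonuclease that trims Okazaki fragments, fell in both lines by less (-0.85 ± 0.21, adjusted p = 0.00359, and -0.78 ± 0.17, adjusted p = 0.00111), and POLE, the catalytic subunit of the leading-strand polymerase, also fell (-1.08 ± 0.36, adjusted p = 0.0320, and -1.08 ± 0.29, adjusted p = 0.00728).

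The clamp loader did not move as one. Its small subunits RFC2 and RFC3 were called lower in both lines: RFC3 read 90.1 and 73.7 CPM against 42 and 41.3 in SCaBER (log2 fold change -0.98 ± 0.19, adjusted p = 0.000255) and changed by -1.06 ± 0.27 (adjusted p = 0.00464) in RT112. RFC5 was called in SCaBER (-1.05 ± 0.26, adjusted p = 0.00334) and not in RT112 (-0.86 ± 0.35, adjusted p = 0.0810), and RFC4 in neither (-1.02 ± 0.45, adjusted p = 0.11, and -0.82 ± 0.31, adjusted p = 0.0665). RFC1, the large subunit, went the other way in RT112, from 176 and 199.7 CPM to 256 and 324 (log2 fold change 0.63 ± 0.15, adjusted p = 0.00394). Both siFOXA1 libraries of RFC1 lay above both siControl libraries, although the call was lost without siControl replicate 1 or siFOXA1 replicate 2 (adjusted p = 0.060 and 0.10). In SCaBER the RFC1 estimate was 0.30 ± 0.16 (adjusted p = 0.22), from 118 and 131 to 141 and 167 CPM.

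The single-strand binding subunits RPA1, RPA2 and RPA3 were not called in either line, with estimates from -0.47 (RPA1 in SCaBER) to 0.43 (RPA2 in RT112) and SE from 0.18 to 0.25. The RPA3 libraries overlapped between the groups in both lines. The ligase LIG1 (-0.49 ± 0.32, adjusted p = 0.303, and -0.96 ± 0.35, adjusted p = 0.0555), the polymerase subunit POLE2 (-0.93 ± 0.63, adjusted p = 0.32, and -1.04 ± 0.57, adjusted p = 0.23) and the lagging-strand polymerase POLD1 (0.41 ± 0.88, adjusted p = 0.798, and -1.46 ± 0.61, adjusted p = 0.102) were not called. POLD1 had 8.05 and 1.5 CPM in the RT112 siFOXA1 libraries, and its direction there turned on replicate 1, without which the estimate was -1.25.

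In the checkpoint group, 2 of 7 were called lower in each line, with medians of -0.50 and -0.09. CLSPN, the adaptor through which ATR activates CHEK1, had the smallest p of all members in RT112, where 89.2 and 107 CPM with siControl became 37.2 and 22.4 with siFOXA1 (log2 fold change -1.72 ± 0.26, adjusted p = 2.33e-05). SCaBER started higher, at 142 and 139.7 CPM, and fell to 67.9 and 51.9 (log2 fold change -1.23 ± 0.17, adjusted p = 1.95e-06). TOPBP1, the activator of ATR, was called in SCaBER, where it read 159 and 148 and then 64.9 and 75.1 CPM (log2 fold change -1.14 ± 0.16, adjusted p = 1.44e-06). Its RT112 estimate was smaller and not called (-0.46 ± 0.21, adjusted p = 0.13).

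The kinases ATM, ATR and CHEK1 were called in neither line. ATM, which answers double-strand breaks, had a positive estimate in RT112 (0.88 ± 0.33, adjusted p = 0.0577, from 20.4 and 14.7 to 33 and 31.4 CPM) and one near 0 in SCaBER (-0.09 ± 0.41, adjusted p = 0.92). ATR was at -0.50 ± 0.32 (adjusted p = 0.28) and -0.08 ± 0.26 (adjusted p = 0.88), and CHEK1 at -0.61 ± 0.32 (adjusted p = 0.19) and 0.12 ± 0.27 (adjusted p = 0.84). TIMELESS, a fork protection factor, was not called (-0.22 ± 0.22, adjusted p = 0.53, and -0.52 ± 0.20, adjusted p = 0.0628), though in SCaBER its call passed with the block (adjusted p = 0.0382).

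CHEK2, the kinase downstream of ATM, was the 1 member called for a difference in response between the lines. RT112 libraries read 17.4 and 20.4 CPM with siControl and 7.85 and 2.36 with siFOXA1 (log2 fold change -1.87 ± 0.50, adjusted p = 0.00710). SCaBER libraries read 22.1 and 30.9 and 37.3 and 42.6 CPM (log2 fold change 0.59 ± 0.28, adjusted p = 0.16). So the siFOXA1 libraries of CHEK2 were both below the siControl libraries in RT112 and both above them in SCaBER. CHEK2 is described because it was called for this difference, so these positions add no support. In a fit over all 24 libraries 1 of 44 members (2.27%) was called for a difference between the lines, no more than the 2.58% of all 14823 genes. For CHEK2 the difference of the effects, SCaBER minus RT112, was 2.47 ± 0.57 (adjusted p = 0.0115). Without RT112 siFOXA1 replicate 2, or without SCaBER siControl replicate 1, it was not called. For the other 43 members no difference between lines passed the test, and 4 members in all had an unadjusted p under 0.05.

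**Figure D2:**
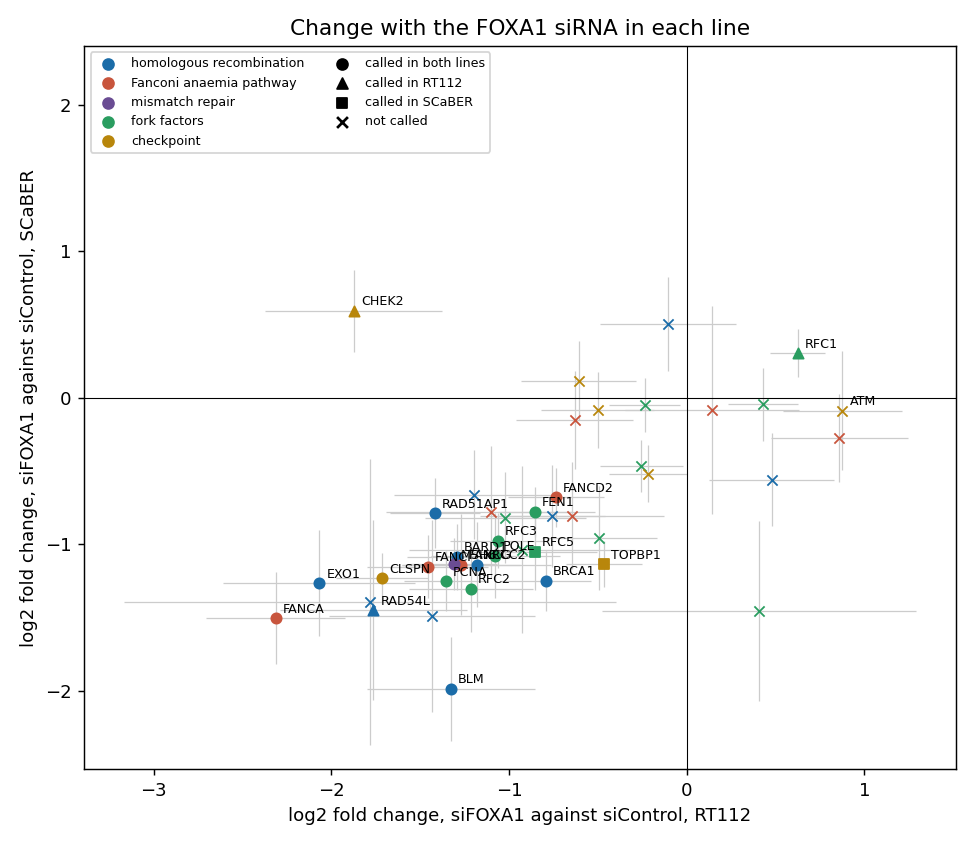
Log2 fold change of siFOXA1 against siControl in RT112 (horizontal) and in SCaBER (vertical) for the 44 members, with bars of 1 standard error, colours for role groups and shapes for the lines in which a gene was called. Most points lie in the lower left part, and CHEK2 lies at -1.87 and 0.59.

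The lines share no library, so their calls could be set side by side. Called lower in both lines were 17 members: BARD1, BLM, BRCA1, CLSPN, EXO1, FANCA, FANCD2, FANCG, FANCI, FEN1, MSH6, PCNA, POLE, RAD51AP1, RFC2, RFC3 and XRCC2. They are 17 of the 19 lower calls in RT112 and 17 of the 19 in SCaBER. Without RT112 siFOXA1 replicate 2 there were 7 (BARD1, CLSPN, EXO1, FANCA, MSH6, PCNA and RAD51AP1). Of 11763 genes tested in both lines, 646 (5.49%) were called lower in both. RAD54L and CHEK2 were called lower in RT112 only and TOPBP1 and RFC5 in SCaBER only, and of these 4 CHEK2 had a difference between lines that passed the test.

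**Figure D3:**
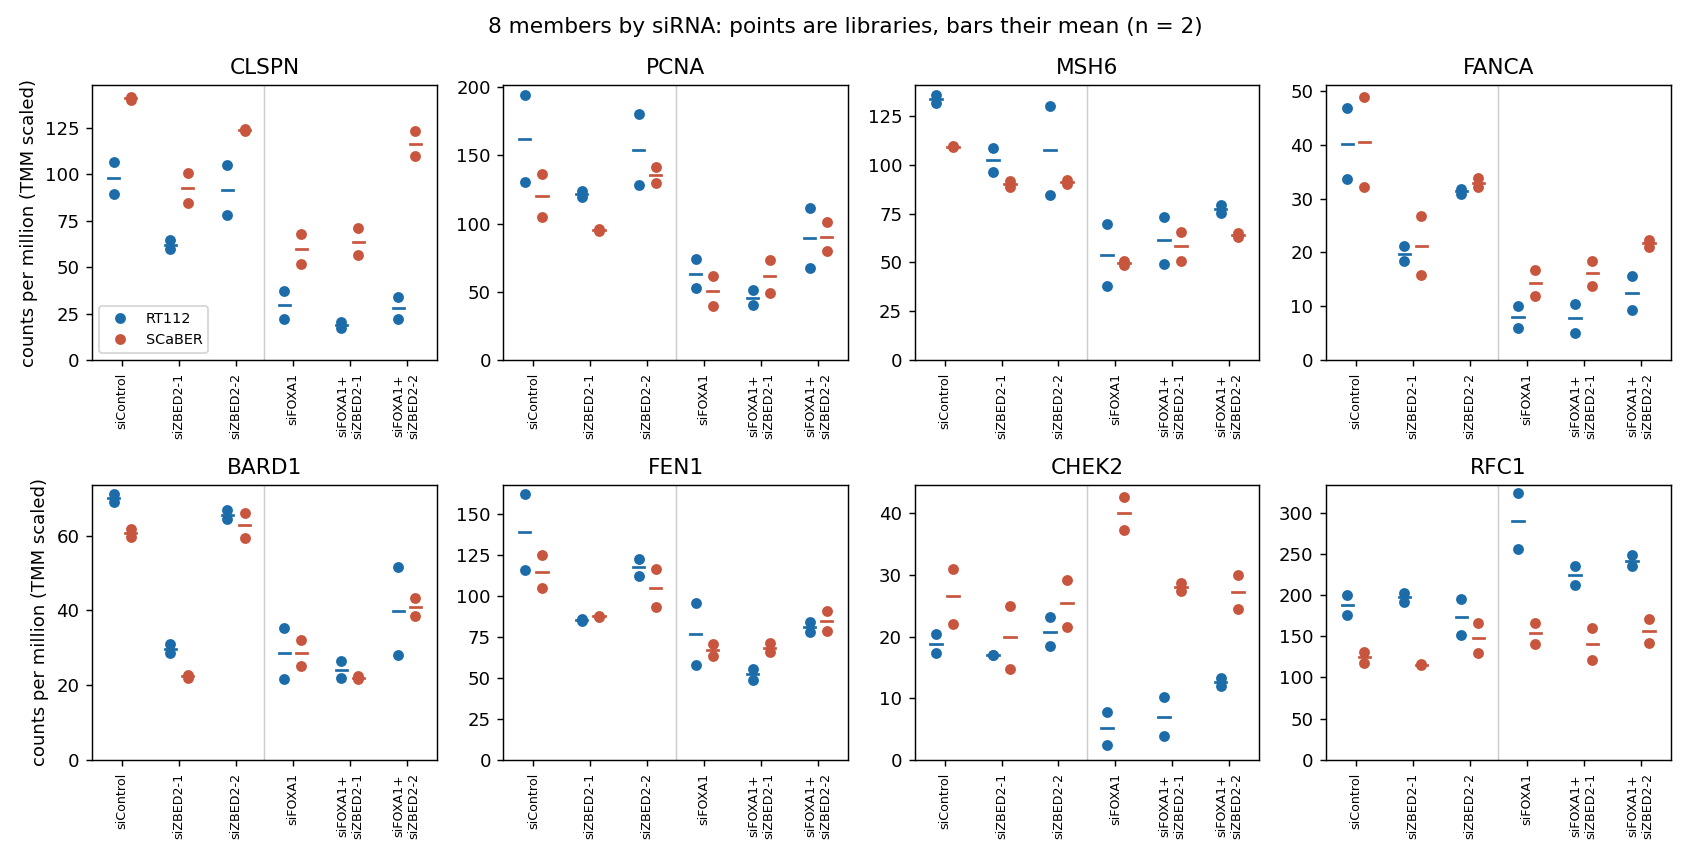
TMM-scaled CPM of 8 members (CLSPN, PCNA, MSH6, FANCA, BARD1, FEN1, CHEK2 and RFC1) by siRNA, with a point for each library, a bar for the mean of 2, and a grey line between treatments without and with the FOXA1 siRNA. CHEK2 is lower with siFOXA1 than with siControl in RT112 and higher in SCaBER, and BARD1 is low with siZBED2-1 as well.

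The promoters of 6 members are shown because, of those with a RefSeq promoter, these had the smallest p when the larger p of both lines was taken. The 250 bases before the RefSeq start (GRCh38.p14) are printed 5′ to 3′ on the strand of the gene, so the last base lies next to the start, and the counts themselves were made on hg38. Capitals mark matches to an E2F-type word (TTTCCCGC, TTTCGCGC, TTTGCCGC or TTTGGCGC), to CHR, the cell cycle element, searched as TTTGAA and as a variant that reads TTCGAA, or to CCAAT, on either strand. These are CLSPN (chr1:35769979-35770228, minus strand), PCNA (chr20:5126623-5126872, minus), MSH6 (chr2:47782895-47783144, plus), FANCA (chr16:89816648-89816897, minus), BARD1 (chr2:214809684-214809933, minus) and FEN1 (chr11:61792661-61792910, plus).
CLSPN: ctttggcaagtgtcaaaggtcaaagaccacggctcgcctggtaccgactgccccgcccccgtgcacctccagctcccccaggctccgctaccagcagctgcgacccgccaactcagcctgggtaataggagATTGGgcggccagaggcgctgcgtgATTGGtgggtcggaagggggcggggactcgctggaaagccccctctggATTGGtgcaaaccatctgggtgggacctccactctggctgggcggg
PCNA: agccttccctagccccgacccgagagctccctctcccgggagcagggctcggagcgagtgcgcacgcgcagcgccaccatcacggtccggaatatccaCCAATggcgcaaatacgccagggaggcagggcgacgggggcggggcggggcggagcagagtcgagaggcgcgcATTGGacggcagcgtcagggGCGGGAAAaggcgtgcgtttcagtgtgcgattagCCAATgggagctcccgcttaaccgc
MSH6: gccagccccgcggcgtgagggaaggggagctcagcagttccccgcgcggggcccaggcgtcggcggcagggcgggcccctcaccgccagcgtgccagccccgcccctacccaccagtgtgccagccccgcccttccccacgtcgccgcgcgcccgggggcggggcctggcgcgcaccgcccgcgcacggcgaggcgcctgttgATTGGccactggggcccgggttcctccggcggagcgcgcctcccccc
FANCA: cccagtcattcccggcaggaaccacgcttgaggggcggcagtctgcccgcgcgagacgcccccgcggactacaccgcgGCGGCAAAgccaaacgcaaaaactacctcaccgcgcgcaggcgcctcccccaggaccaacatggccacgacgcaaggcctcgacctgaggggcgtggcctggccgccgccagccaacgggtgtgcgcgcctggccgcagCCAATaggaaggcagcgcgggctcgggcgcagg
BARD1: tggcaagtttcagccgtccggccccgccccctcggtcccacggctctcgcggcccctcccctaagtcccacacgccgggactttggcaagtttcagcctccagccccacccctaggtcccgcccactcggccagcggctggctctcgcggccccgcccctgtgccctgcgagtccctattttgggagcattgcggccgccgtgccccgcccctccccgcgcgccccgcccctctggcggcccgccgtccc
FEN1: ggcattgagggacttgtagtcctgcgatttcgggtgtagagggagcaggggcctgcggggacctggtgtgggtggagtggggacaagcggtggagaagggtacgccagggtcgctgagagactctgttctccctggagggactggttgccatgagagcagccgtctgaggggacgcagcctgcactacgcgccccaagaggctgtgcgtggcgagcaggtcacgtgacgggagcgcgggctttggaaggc

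PCNA held an E2F-type match at bases 59 to 52 before the start and CCAAT matches at 152 to 148, 79 to 75 and 25 to 21. CLSPN held 3 CCAAT matches (119 to 115, 94 to 90 and 46 to 42), FANCA an E2F-type match at 172 to 165 and a CCAAT match at 33 to 29, and MSH6 a CCAAT match at 47 to 43. BARD1 and FEN1 held none of these words. Over all members' promoters, E2F-type matches overlapped a GC box, which is not capitalised, in LIG1 and PCNA, and a CCAAT match did so in CLSPN. RefSeq promoters were matched for 40 of the 44 members, the 4 without one being RAD54B, FANCI, RPA2 and RPA3. Over these 40, the E2F-type words were in 6 (15%) against 2.75% of 27305 promoters of the same length, CCAAT in 20 (50%) against 32.7%, the GC box GGGCGG in 31 (77.5%) against 41.3%, and CHR in 3 (7.5%) against 14.9%. The forkhead motif, searched as TGTTTAC and in the variants that read TGTTTGC or else, with another base changed, TATTTAC, was in none of the 40 and in 8.35% of all promoters. The members' promoters were richer in G and C (median 65% against 57.6%), and these counts were not corrected for it. A match is a run of letters and not a site.

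Matches stood in called and in uncalled members. Of the 16 members with a promoter that were called lower in both lines, 4 held an E2F-type word, 7 CCAAT, 13 the GC box and 0 CHR. Of the other 24, 2, 13, 18 and 3 did. The E2F-type words were in FANCA, PCNA, POLE and RFC3, called in both lines, and in FANCC and LIG1, called in neither. Of the 7 members called lower in both lines without RT112 siFOXA1 replicate 2, 2 held an E2F-type word, 5 CCAAT, 7 the GC box and 0 CHR, and of the other 33, 4, 15, 24 and 3 did.

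The second question was whether the FOXA1 siRNA changed these genes when a ZBED2 siRNA was also present, in libraries that share nothing with the first comparison. In RT112 with siZBED2-1, 16 members were called, 15 lower and RAD51C higher, where 10.3% of all genes were called and 5.41% lower, and the members' median was -0.71. In RT112 with siZBED2-2, 6 members were called, all lower, where 8.78% of genes were called and 4.34% lower, with a median of -0.54. With the replicate block the latter count was 12, of which 9 were lower (BARD1, RFC2 and BRCA1 gained) and RPA2, RFC1 and RAD51C were higher. These counts leaned on single libraries: without siZBED2-1 replicate 2 or siFOXA1+siZBED2-1 replicate 2 the first fell to 4, and without siZBED2-1 replicate 1 to 8, while without siFOXA1+siZBED2-2 replicate 2 the second fell to 1. Proliferation markers were called lower in 12 of 13 and 11 of 13 in the same comparisons.

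CLSPN fell by nearly the same factor in all 3 RT112 comparisons, reading 64.4 and 59.95 CPM with siZBED2-1 and 20.6 and 17.2 with siFOXA1+siZBED2-1 (log2 fold change -1.72 ± 0.27, adjusted p = 0.000113), and 78.1 and 105 with siZBED2-2 and 33.8 and 22.1 with siFOXA1+siZBED2-2 (log2 fold change -1.71 ± 0.26, adjusted p = 0.000103). PCNA read 124 and 119 and 51.2 and 40.1 CPM in the first pair (log2 fold change -1.42 ± 0.24, adjusted p = 0.000293) and 128 and 180.3 and 111 and 67.7 in the second (log2 fold change -0.79 ± 0.23, adjusted p = 0.0317). FANCA (-1.36 and -1.34) and FANCI (-1.26 and -1.27) completed the 4 members called lower in all 3, which 2.32% of genes were. Of these, CLSPN was called under each of the 10 other settings in all 3 comparisons, and PCNA in all but the siZBED2-2 pair. RAD51C was called higher with siZBED2-1 present, from 17.1 and 9.29 to 38.2 and 27.5 CPM (log2 fold change 1.31 ± 0.37, adjusted p = 0.0201), and it was not called in the other pairs (0.48 ± 0.35, adjusted p = 0.36 without a ZBED2 siRNA and 0.83 ± 0.35, adjusted p = 0.16 with siZBED2-2).

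RAD54B was called lower in the siZBED2-1 pair on very few reads. It had 0 counts in both siFOXA1+siZBED2-1 libraries, against 1 and 26 counts in the siZBED2-1 libraries. Set against a floor of 3 counts per library (0.622 CPM), it was at least 4.78-fold lower, but the first siZBED2-1 library was itself under that floor. With the replicate block this call was lost (adjusted p = 0.060).

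In SCaBER the same comparisons gave fewer calls. With siZBED2-1 present, 3 members were called lower (BLM, MSH6 and RFC5), where 5.78% of genes were called and 2.73% lower, and the median was -0.25. Adding the replicate block gave 7 (CLSPN, POLE, POLE2 and PCNA gained), and without siZBED2-1 replicate 2 there were 0, without siZBED2-1 replicate 1 there was 1. With siZBED2-2 present no member was called by edgeR or DESeq2, 7 had an unadjusted p under 0.05, and the block gave 1 (PCNA, adjusted p = 0.0214), where 3.03% of genes were called and 1.38% lower, with a median of -0.22. MSH6, for example, read 88.8 and 91.6 and 50.9 and 65.5 CPM in the first pair (log2 fold change -0.63 ± 0.17, adjusted p = 0.0232) and 90.1 and 92.1 and 63.1 and 64.9 in the second (log2 fold change -0.51 ± 0.17, adjusted p = 0.11). Its 4 groups did not overlap within a pair, and the second change fell short of the threshold.

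Directions were shared by more members than calls were. In RT112, 36 members had a negative estimate in all 3 comparisons and 4 a positive one in all 3 (RAD51C, FANCC, RFC1 and RPA2), against 27.5% and 26.6% of all genes tested. In SCaBER, 26 were negative and 2 positive (RFC1 and CHEK2) in all 3, against 24.1% and 23.5% of all genes. Across both lines 22 members were negative in all 6, as were 13.4% of all genes: BARD1, BLM, BRCA2, CLSPN, EXO1, FANCA, FANCE, FANCG, FANCI, FEN1, LIG1, MSH6, PCNA, POLE, POLE2, RAD51AP1, RFC2, RFC3, TIMELESS, TOPBP1, XRCC2 and XRCC3.

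The same was seen by setting the 6 libraries of a line with the FOXA1 siRNA against the 6 without it. In RT112 all 6 were lower than all 6 for 11 members (BRIP1, CHEK2, CLSPN, FANCA, FANCG, FANCI, MSH6, PCNA, POLE, RFC2 and XRCC2), against 5.68% of genes. CLSPN ran from 59.95 to 107 CPM with a median of 83.7 without the FOXA1 siRNA and from 17.2 to 37.2 CPM with a median of 22.2 with it. FANCG, of the Fanconi core complex, ran from 34.3 to 54 CPM with a median of 42.8 and from 11.8 to 27.6 CPM with a median of 19.6. RFC1 was the member for which all 6 were higher, from 152 to 203 CPM with a median of 194 without and from 213 to 324 CPM with a median of 242 with it. The share of all genes separated in that direction is not given here, so RFC1 cannot be set against it. In SCaBER 4 members were separated, all lower with the FOXA1 siRNA (EXO1, FANCE, FANCI and MSH6), against 3.37% of genes. MSH6 there ran from 88.8 to 109 CPM with a median of 91.8 and from 48.5 to 65.5 CPM with a median of 57.

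The ZBED2 siRNAs alone differed in their effect on a few of these genes. Against siControl in RT112, siZBED2-1 called 4 members, all lower (BARD1, RPA3, FEN1 and TOPBP1), where 4.45% of genes were called lower, and the members' median was -0.56. In SCaBER it called 5, all lower (BARD1, BRCA1, FANCD2, RFC4 and CLSPN), where 2.45% of genes were, with a median of -0.41. With the replicate block the RT112 count was 12 (FANCD2, CHEK1, RAD51AP1, BRCA2, RFC3, BLM, FANCA and RAD51C gained, all lower) and the SCaBER count 7 (TOPBP1 and RPA3 gained). Leaving out 1 library gave 1 to 3 calls in either line, the lowest being without siControl replicate 2 in RT112 and without siZBED2-1 replicate 2 in SCaBER. The RT112 count was 2 without either siZBED2-1 library, and the SCaBER count was 2 without siControl replicate 1 and 3 without siControl replicate 2 or siZBED2-1 replicate 1. Against siControl, siZBED2-2 called no member by edgeR or DESeq2 in either line, with 0 unadjusted p under 0.05 in RT112 and 1 in SCaBER, where it called 0.166% and 0.625% of all genes, and the medians were -0.08 and -0.11.

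In RT112 the siControl libraries of BARD1 read 69 and 71.2 CPM, the siZBED2-1 libraries 28.6 and 31 and the siZBED2-2 libraries 66.9 and 64.5, against 61.8 and 59.7, 22 and 22.8 and 59.4 and 66.1 in SCaBER. So the siZBED2-1 libraries alone were low, in both lines (-1.24 ± 0.28, adjusted p = 0.00490 and -1.44 ± 0.23, adjusted p = 7.25e-05 against siControl). RPA3, the smallest RPA subunit, followed the same order with 90.5 and 105, 57.7 and 46.9 and 103 and 96.4 CPM in RT112 (log2 fold change -0.90 ± 0.21, adjusted p = 0.00517 for siZBED2-1), and 95 and 105, 60.2 and 70.1 and 101 and 121 in SCaBER (log2 fold change -0.61 ± 0.19, adjusted p = 0.0535). Set directly against siZBED2-2, siZBED2-1 gave lower BARD1 (-1.14 ± 0.28, adjusted p = 0.0102 in RT112 and -1.49 ± 0.23, adjusted p = 6.51e-05 in SCaBER) and lower RPA3 (-0.93 ± 0.21, adjusted p = 0.00475, and -0.77 ± 0.19, adjusted p = 0.0116), and in RT112 lower RFC3 (-0.84 ± 0.26, adjusted p = 0.0498). That RFC3 call was lost with DESeq2 (adjusted p = 0.051) and without any 1 of the 4 libraries (up to 0.23), that of BARD1 in RT112 without siZBED2-1 replicate 1 (0.077), and those of RPA3 without siZBED2-1 replicate 2 in RT112 (0.084) and without siZBED2-1 replicate 1 or siZBED2-2 replicate 2 in SCaBER (up to 0.16).

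Those 3 and 2 calls stood beside 4% and 2.4% of genes called lower, and the block raised the RT112 count to 6 (FANCD2, CHEK1 and BLM gained), while leaving out either siZBED2-1 library lowered it to 1. In SCaBER leaving out siZBED2-2 replicate 2 gave 1. Proliferation markers were lower as well in the siZBED2-1 libraries, where their summed level was 1938 to 2039 CPM in RT112 and 2122 to 2218 in SCaBER, against 3175 to 3361 and 2685 to 2767 with siZBED2-2. Their part in the members' change was not tested. With siZBED2-1, ZBED2 itself read 2.38 and 0 CPM in RT112 and 2.4 and 7.34 in SCaBER, and, with siZBED2-2, 7.33 and 6.25 and 8.86 and 16. Which of these, or any other action of siZBED2-1, goes with the lower BARD1 and RPA3 cannot be told apart.

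The third question was what adding a ZBED2 siRNA to siFOXA1 did. In RT112, siFOXA1+siZBED2-1 against siFOXA1 called 1 member, BLM, lower (-2.29 ± 0.56, adjusted p = 0.0239), where 2.55% of genes were called, and the members' median was -0.43. The block gave 3 (RPA3 and CHEK1 gained), and leaving out 1 library gave 0 (without siFOXA1+siZBED2-1 replicate 2) to 5 (without its replicate 1), with 4 without siFOXA1 replicate 2. BLM read 24.9 and 4.51 CPM in the siFOXA1 libraries and 3.61 and 2.43 with siFOXA1+siZBED2-1, and the call was lost without siFOXA1 replicate 1 or siFOXA1+siZBED2-1 replicate 2 (adjusted p up to 0.68). Adding siZBED2-2 called no member in RT112 by edgeR or DESeq2 (5 had an unadjusted p under 0.05, and without siFOXA1 replicate 1 there were 3, all higher), where 1.25% of genes were called, with a median of 0.17.

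In SCaBER the picture was different for siZBED2-2. Added to siFOXA1 it called 6 members, all higher (BRCA1, BLM, PCNA, RFC5, TOPBP1 and CLSPN), where 2.25% of genes were called higher, and the members' median was 0.53. CLSPN read 67.9 and 51.9 CPM with siFOXA1 and 109.9 and 123 with siFOXA1+siZBED2-2 (log2 fold change 0.96 ± 0.17, adjusted p = 0.000584). BLM went from 7.75 and 5.44 to 17.3 and 19.3 CPM (log2 fold change 1.46 ± 0.36, adjusted p = 0.0126), TOPBP1 from 64.9 and 75.1 to 107 and 119 (log2 fold change 0.69 ± 0.16, adjusted p = 0.00648), and PCNA from 39.8 and 61.7 to 79.8 and 101 (log2 fold change 0.84 ± 0.20, adjusted p = 0.0124). In each of these 4 both libraries with the added siRNA were above both with siFOXA1. They were picked as called higher in this same comparison, so that separation adds no support. BRCA1 and RFC5 had estimates of 0.78 ± 0.21 (adjusted p = 0.0235) and 1.04 ± 0.26 (adjusted p = 0.0152). Of the 6 calls, that of CLSPN was kept under each of the 10 other settings, and without siFOXA1+siZBED2-2 replicate 2 CLSPN was the 1 call left. Of 13 proliferation markers, 12 were called higher in the same comparison, their sum going from 1072 to 1282 CPM with siFOXA1 to 2198 to 2221 CPM, and their part in the members' change was not tested. Adding siZBED2-1 in SCaBER called no member by edgeR or DESeq2 (2 had an unadjusted p under 0.05), where 2.73% of genes were called, with a median of 0.01.

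Whether the FOXA1 siRNA acted differently with a ZBED2 siRNA than without it was tested as an interaction, which uses the siControl and siFOXA1 libraries again. In SCaBER with siZBED2-2, 3 members had a positive interaction, where 0.838% of genes did. For CLSPN the effect of siFOXA1 was -1.23 without and -0.09 with siZBED2-2, a difference of 1.14 ± 0.24 (adjusted p = 0.00702). The effect on BRCA1 was -1.25 and 0.03 (difference 1.28 ± 0.28, adjusted p = 0.0113), and on TOPBP1 -1.14 and -0.25 (difference 0.88 ± 0.22, adjusted p = 0.0264). So for CLSPN and TOPBP1 the fall with siFOXA1 was smaller when siZBED2-2 was present, and for BRCA1 no fall was seen. Each effect with siZBED2-2 is measured from the siZBED2-2 libraries, whose own shift from siControl enters the difference. FOXA1 levels with both siRNAs are not given here, so a weaker knock-down of FOXA1 and an effect of siZBED2-2 cannot be told apart. Leaving out siControl replicate 1 or siFOXA1 replicate 2 left 1 of the 3. The CLSPN call was lost without siFOXA1 replicate 2 (adjusted p = 0.058), that of BRCA1 without it or siControl replicate 1 (up to 0.12), and that of TOPBP1 without siControl replicate 1, siFOXA1 replicate 1, siFOXA1+siZBED2-2 replicate 2 or either siZBED2-2 library (up to 0.12). Of 13 proliferation markers, 10 had a positive interaction in the same test.

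With siZBED2-1 in SCaBER, TOPBP1 had a positive interaction (0.85 ± 0.22, adjusted p = 0.0373), the 1 member called, where 0.708% of genes were. The block gave 2 (BRCA1 gained, adjusted p = 0.0466), and the TOPBP1 call was lost without any 1 of the 8 libraries except siFOXA1 replicate 2 (adjusted p up to 0.18). In RT112 neither interaction called a member by edgeR or DESeq2 (2 unadjusted p under 0.05 in each), where 1.14% of genes were called with siZBED2-1 and 0.098% with siZBED2-2. Without siFOXA1 replicate 1 the latter gave 1.

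**Figure D4:**
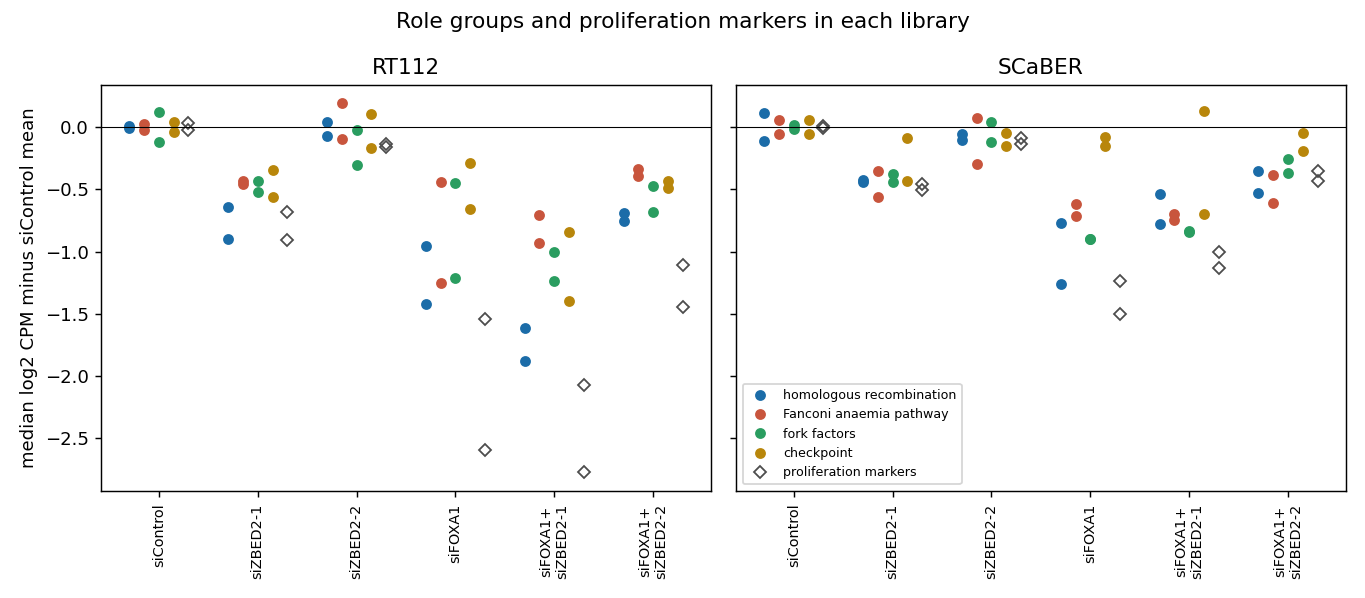
Median log2 CPM minus the siControl mean in each library for 4 role groups (points, coloured) and for the 13 proliferation markers (open diamonds), by siRNA in RT112 (left) and SCaBER (right). Most of the members' points are below 0 with siZBED2-1, siFOXA1 and siFOXA1+siZBED2-1 in both lines, the diamonds lie lowest with siFOXA1 and siFOXA1+siZBED2-1, and with siFOXA1+siZBED2-2 in SCaBER both return part of the way.

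Between the siControl libraries of SCaBER and RT112, 6 of 44 members were called, where 33.6% of 14823 genes were, and the median difference was -0.05. FANCC, of the Fanconi core complex, was higher in SCaBER, at 29.3 and 25 CPM against 10.8 and 11.2 (log2 fold change 1.29 ± 0.34, adjusted p = 0.00309), and so was RPA1 (0.69 ± 0.20, adjusted p = 0.00598). RPA2, the middle RPA subunit, was lower in SCaBER, at 39.1 and 30.9 against 64.6 and 77.4 CPM (log2 fold change -1.03 ± 0.22, adjusted p = 0.000364), as were BRCA2 (-0.99 ± 0.34, adjusted p = 0.0242), RFC1 (-0.61 ± 0.17, adjusted p = 0.00451) and the kinase CHEK1 (-0.82 ± 0.31, adjusted p = 0.0437). The CHEK1 call was lost with library size alone, with no filter and without any 1 of the 4 libraries (adjusted p up to 0.23). Those of RFC1 (up to 0.065) and BRCA2 (up to 0.16) were each lost without 1 library of either line, and that of RPA1 without RT112 siControl replicate 1 (0.12). Each of these compares 1 line with 1 line in different media, so line and medium cannot be told apart.

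Other genes of the same pathways, from lists that hold no member, were called in part. Of all genes, 23.3% were called in either direction in RT112 and 11.9% lower, and 17.8% and 9.12% in SCaBER. Of 16 other homologous recombination genes tested, 4 were called lower with siFOXA1 in RT112 and 1 lower and 1 higher in SCaBER. The SCaBER count did not exceed the share of all genes. RMI2, of the complex that works with BLM, was called in both lines (-1.40 ± 0.31, adjusted p = 0.00170, and -1.56 ± 0.39, adjusted p = 0.00413), RMI1 in RT112 (-1.22 ± 0.36, adjusted p = 0.0149), and NBN, of the complex that senses breaks, was higher in SCaBER (0.61 ± 0.17, adjusted p = 0.00871). Of 22 other replisome genes, 6 were called lower and 1 higher in RT112, and 10 lower and 1 higher in SCaBER. GINS1 (-1.46 ± 0.26, adjusted p = 0.000178) and CDC45 (-1.70 ± 0.35, adjusted p = 0.000701), both of the replicative helicase, led in RT112, and POLD2 (-0.98 ± 0.15, adjusted p = 7.84e-06) and POLA1 (-1.49 ± 0.30, adjusted p = 0.000332), both polymerase subunits, in SCaBER. POLE4, an accessory subunit of the polymerase of POLE, was the gene called higher in both lines (1.16 ± 0.36, adjusted p = 0.0182, and 1.06 ± 0.23, adjusted p = 0.000960).

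Some members lie over other genes. In the RefSeq annotation (GRCh38.p14), 26 of the 44 overlapped another gene, among them CLSPN with CLSPN-AS1, PCNA with PCNA-AS1, FANCA with ZNF276, RPA3 with UMAD1 and BRCA1 with NBR2. The strand setting of the counting is given as automatic, so reads of such pairs may not have been told apart in full. Pseudogene copies took almost none of the reads: over all 24 libraries CHEK2P2 had 3 counts, against 2514 for CHEK2, and the copies of RAD51AP1, FANCD2, PCNA, RFC3, RFC5, RPA2 and FEN1 had 0.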

How the data were processed

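Polyadenylated RNA of RT112 and SCaBER cells was measured by 3′ RNA-seq (Lexogen kit, forward strand) in 24 libraries, 2 for each of 6 siRNA treatments per line. The deposited values are raw counts per gene, which the authors made with STAR 2.6.1a after trimming with TrimGalore 0.6.2, on hg38 with GENCODE release 29 per the deposited settings (the study's methods name another human build). No molecular identifiers are stated, so reads are not independent molecules, and totals of 4425404 to 6119210 counts set the precision.

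Here, genes were filtered within a line (edgeR filterByExpr, minimum count 10, minimum total 15), scaled by TMM and tested with the quasi-likelihood F-test of edgeR 4.0.16 in R 4.3.3, with the 12 libraries of a line in 1 fit and all 24 in the comparisons between lines. P-values were adjusted by Benjamini-Hochberg over all genes tested, and called means under 0.05. Each SE is the log2 fold change divided by the root of its F. Tests were checked on simulated data. Alternatives were DESeq2 1.42.0, other scalings (RLE, and library size alone), no filter, a threshold of 0.01, the replicate block, each library left out, and, chosen after seeing the data, counts without mitochondrial transcripts. Replicate numbers pair libraries by label (experiment batch replicate). In the check, 0 of 15 treatment pairs in either line had a correlation of deviations over 0.1 over all genes, and over the members 8 of 15 in RT112 (mean 0.16) and 1 of 15 in SCaBER (mean -0.054) did.

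The members and gene lists were chosen with earlier results of these data known. Named were the 3 members of each role group with the smallest p and the 1 with the largest p in each line for siFOXA1 against siControl, every member called for a ZBED2 siRNA alone, an interaction or a line difference or called higher with the FOXA1 siRNA, and the 2 leading genes in each direction of each other list. Members outside this rule were named to account for all 44, after their values were seen. Results for some genes of these pathways are not reported here.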

Additional observations from a re-analysis of the deposited data

Results flagged for a closer look

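A test of the difference itself passed for 4 members, in 5 tests over 3 comparisons. As given above, each of the 5 calls was lost with a library left out. Of all genes, 2.58% were called for the line difference. In SCaBER 0.838% had a positive interaction with siZBED2-2 and 0.708% with siZBED2-1. CHEK2 differed between the lines in its response to siFOXA1, with a difference of 2.47 on the log2 scale (SCaBER minus RT112, adjusted p = 0.0115), both siFOXA1 libraries being lower in RT112 and both higher in SCaBER. In SCaBER the effect of siFOXA1 was smaller when siZBED2-2 was present for CLSPN (difference 1.14), BRCA1 (1.28) and TOPBP1 (0.88). With siZBED2-1 the difference for TOPBP1 was 0.85. With 2 libraries a group, no search for single outlying libraries within a group was made.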

How the results depend on the processing

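The counts of called members were recomputed under each alternative for 22 comparisons. Within 1.5 times of the reported count lay 21 of 22 with RLE size factors, with library size alone and without mitochondrial transcripts, 19 with DESeq2, 18 with no filter, 15 with the replicate block, 9 at the 0.01 threshold, and 74 of 108 with 1 library left out. Library size alone took the median of all genes from -0.015 to -0.11 in RT112 siFOXA1 against siControl, a move of -0.096, the furthest that any scaling moved it.

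At the 0.01 threshold, which by construction calls fewer, RT112 counts were 13 for siFOXA1, 4 for siFOXA1+siZBED2-1 against siZBED2-1, 1 for siFOXA1+siZBED2-2 against siZBED2-2, 2 for siZBED2-1, 0 for siFOXA1+siZBED2-1 against siFOXA1 and 1 between the ZBED2 siRNAs. In SCaBER they were 0 for siFOXA1+siZBED2-1 against siZBED2-1, 1 for siZBED2-1, 2 for siFOXA1+siZBED2-2 against siFOXA1, 1 between the ZBED2 siRNAs, and 0 and 1 for the interactions with siZBED2-1 and siZBED2-2. The line difference had 0.

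The replicate block, from the paired labels, gave 12 for siFOXA1+siZBED2-2 against siZBED2-2, 12 for siZBED2-1, 3 for siFOXA1+siZBED2-1 against siFOXA1 and 6 between the ZBED2 siRNAs in RT112, and 7 and 1 for siFOXA1 with siZBED2-1 and with siZBED2-2 and 2 for the siZBED2-1 interaction in SCaBER. It lost no other call than that of RAD54B. With no filter the RT112 counts were 8 for siZBED2-1, 3 for siFOXA1+siZBED2-1 against siFOXA1 and 5 between the ZBED2 siRNAs, and SCaBER siFOXA1+siZBED2-2 against siZBED2-2 had 1. DESeq2 gave 3 for siFOXA1+siZBED2-1 against siFOXA1 in RT112 (RLE 2, without mitochondrial transcripts 2), 7 for siFOXA1+siZBED2-1 against siZBED2-1 in SCaBER (library size alone 6) and 3 for the SCaBER siZBED2-1 interaction. The causes were not tested.

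With 1 library left out, the lone library of an arm being taken to vary like the other groups, RT112 counts ran from 7 to 24 for siFOXA1, 4 to 18 and 1 to 8 for siFOXA1 with siZBED2-1 and siZBED2-2, 1 to 3 for siZBED2-1, 0 to 5 and 0 to 3 for siZBED2-1 and siZBED2-2 added to siFOXA1, 1 to 2 between the ZBED2 siRNAs, and 0 to 1 for the siZBED2-2 interaction. In SCaBER they ran from 16 to 17, 0 to 3, 0 to 1 and 1 to 3 for the first 4 of these, 1 to 5 for siZBED2-2 added to siFOXA1, 1 to 2 between the ZBED2 siRNAs, and 0 to 1 and 1 to 3 for the interactions. The siControl lines gave 4 to 5 and the line difference 0 to 1.

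Of the named members, 7 uncalled siFOXA1 estimates changed sign with 1 library left out. In RT112 the log2 fold change ran from -0.31 to 0.075 for PALB2, -0.43 to 1.15 for FANCF, -1.25 to 1.15 for POLD1 and -0.49 to 0.0094 for TIMELESS. In SCaBER it ran from -0.43 to 0.20 for FANCF, -0.27 to 0.14 for RPA2 and -0.33 to 0.21 for ATM. RAD54B, with 10.4 and 16.1 counts a library on average, had the least depth of the members.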

Other observations

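Repair pathways outside the list were called in both directions with siFOXA1 (shares of all genes called: 23.3% in RT112 and 17.8% in SCaBER). Of 9 end-joining genes tested in each line, 1 was called in RT112, the polymerase POLL, higher (1.14 ± 0.32, adjusted p = 0.00940), and 2 in SCaBER, the nuclease DCLRE1C higher (1.77 ± 0.51, adjusted p = 0.0126) and the kinase PRKDC lower (-0.81 ± 0.18, adjusted p = 0.000999). In base excision repair, 3 of 16 were called in RT112 and 4 of 15 in SCaBER. UNG, which removes uracil from DNA, was lower in both lines (-1.51 ± 0.32, adjusted p = 0.000906, and -1.44 ± 0.25, adjusted p = 5.27e-05), and TDG, a thymine glycosylase, was higher in both (0.63 ± 0.17, adjusted p = 0.00763, and 1.01 ± 0.19, adjusted p = 0.000122). MBD4, another glycosylase, was higher in RT112 (0.54 ± 0.14, adjusted p = 0.00614), and PARP1, the sensor of strand breaks, was lower in SCaBER (-0.66 ± 0.13, adjusted p = 0.000197). Of 14 nucleotide excision repair genes, DDB2 was lower in RT112 (-1.65 ± 0.48, adjusted p = 0.0127), and ERCC6 (1.06 ± 0.31, adjusted p = 0.0137) and XPA (0.72 ± 0.25, adjusted p = 0.0407) were higher in SCaBER. Of 11 translesion synthesis genes 1 was higher in each line, UBE2B in RT112 (0.57 ± 0.17, adjusted p = 0.0159) and POLK in SCaBER (0.82 ± 0.24, adjusted p = 0.0149).

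Among targets of p53 in the damage response, more were called higher than lower. Of all genes, 23.3% were called in either direction in RT112 and 11.9% lower, and 17.8% and 9.12% in SCaBER. The share called higher is not given here, so the higher calls of this list were not set against it. In RT112, 6 of 18 were called higher and 2 lower, led by GDF15 (2.70 ± 0.37, adjusted p = 7.09e-06) and ZMAT3 (1.47 ± 0.22, adjusted p = 2.61e-05), with BTG2 (-1.36 ± 0.31, adjusted p = 0.00192) and DDB2, which is also in the excision repair list, among the lower. In SCaBER, 5 of 18 were called higher, led by the cell cycle inhibitor CDKN1A (1.93 ± 0.15, adjusted p = 1.91e-11) and the apoptosis gene BBC3 (1.88 ± 0.25, adjusted p = 5.50e-07). Median log2 fold changes of the list were 0.60 and 0.36.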
